A study of Mus musculus with 2 samples.

Results

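Teneurins, latrophilins and Flrt proteins are 3 small families of adhesion proteins of the cell surface. Their 10 genes, *Tenm1* to *Tenm4*, *Adgrl1* to *Adgrl3* and *Flrt1* to *Flrt3*, were taken by name from the 32285 genes counted in single-cell RNA libraries of the mouse cortex, and all 10 were found there once. The libraries came from 2 wild-type embryos, numbered 4 and 5, collected at embryonic day 16.5 (E16.5) as controls from the *Eomes*-Cre mouse line, in a cross the series calls EomesMllt3. The tissue is labelled brain hemispheres, and the cortex was dissociated with papain and loaded on 10x Genomics 3′ v3.1 chips. No treatment was given and there was a single condition, so the comparisons run between classes of cells and the embryo is the replicate (n = 2). Each count is a unique molecular identifier (UMI), the tag of 1 captured RNA molecule, and UMIs were summed per embryo and cell class and scaled to CPM, the counts per 1e+06 UMIs of that sum.

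Teneurins are large single-pass proteins that reach across the cleft between neurons and bind latrophilins, which are adhesion-type G protein-coupled receptors, on the facing membrane. Flrt proteins, which carry fibronectin and leucine-rich repeats, bind latrophilins at another surface, so that the 3 families can form joint complexes, and they also bind the netrin receptors of the Unc5 family. In the developing cortex these proteins are known for guidance and spacing of migrating neurons and, later, for the choice of synaptic partners.

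On the mm10 build (GRCm38.p6 in RefSeq, matched by symbol), the teneurin genes were long. *Tenm1* (ENSMUSG00000016150) lies on chromosome X from 42527866 to 43429168, *Tenm2* (ENSMUSG00000049336) on chromosome 11 from 36006656 to 37237053, *Tenm3* (ENSMUSG00000031561) on chromosome 8 from 48225665 to 49522824 and *Tenm4* (ENSMUSG00000048078) on chromosome 7 from 96171244 to 96911093. The latrophilin genes are *Adgrl1* (ENSMUSG00000013033, chromosome 8, 83900098 to 83941954), *Adgrl2* (ENSMUSG00000028184, chromosome 3, 148815586 to 148989096) and *Adgrl3* (ENSMUSG00000037605, chromosome 5, 81019085 to 81827825). *Flrt2* (ENSMUSG00000047414) lies on chromosome 12 from 95692006 to 95785215. The other Flrt genes lie within the span of another gene, *Flrt1* (ENSMUSG00000047787, chromosome 19, 7087464 to 7166183) inside *Macrod1* and *Flrt3* (ENSMUSG00000051379, chromosome 2, 140658198 to 140671476) inside *Macrod2*. Whether intron reads were counted, and with strand, is not given in the sources used here, so UMIs of these pairs may not be fully told apart and the levels of *Flrt1* and *Flrt3* are uncertain. *Tenm2* spans 1230 kb and *Flrt3* 13.3 kb, so levels were not compared between genes.

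Promoter sequence from RefSeq (GRCm38.p6) is shown for the members whose annotated start is the outer edge of the gene, 1 from each family, as the 250 bases before the start. They let the sequence before each start be read beside the class levels given further on. By mean CPM these were highest in immature excitatory neuron-like cells for *Tenm4* and in upper-layer neuron-like cells for *Adgrl1* and *Flrt3*. For *Adgrl1* the deep-layer level was nearly the same. Each is written 5′ to 3′ on the strand of the gene, and capitals in the last one mark CATCTG, which reads CAGATG on the other strand.
*Tenm4*, chr7:96170994-96171243, plus strand: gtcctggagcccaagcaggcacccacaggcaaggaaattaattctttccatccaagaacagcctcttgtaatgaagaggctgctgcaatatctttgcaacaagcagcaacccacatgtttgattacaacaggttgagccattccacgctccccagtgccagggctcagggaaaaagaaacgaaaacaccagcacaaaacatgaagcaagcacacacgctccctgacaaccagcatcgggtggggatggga
*Adgrl1*, chr8:83899848-83900097, plus strand: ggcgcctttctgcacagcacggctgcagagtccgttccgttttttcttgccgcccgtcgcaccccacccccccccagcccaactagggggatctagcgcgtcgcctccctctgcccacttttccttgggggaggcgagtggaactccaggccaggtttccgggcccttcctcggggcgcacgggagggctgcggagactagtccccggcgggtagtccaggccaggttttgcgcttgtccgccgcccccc
*Flrt3*, chr2:140671477-140671726, minus strand: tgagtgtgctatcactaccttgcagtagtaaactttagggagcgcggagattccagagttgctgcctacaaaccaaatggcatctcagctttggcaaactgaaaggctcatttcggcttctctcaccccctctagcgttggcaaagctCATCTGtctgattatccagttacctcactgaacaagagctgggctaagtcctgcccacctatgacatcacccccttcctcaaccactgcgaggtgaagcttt
The *Adgrl1* window held 21 CpG dinucleotides, more than 83.7% of the 32851 promoters of the same length, against 5 in that of *Flrt3* and 4 in that of *Tenm4*, with a median of 6 over all promoters. Another *Tenm4* entry, at a start inside the gene and not shown, held 8. The letters CAGATG occur on either strand of 14.4% of those promoters, and the match in *Flrt3* is a description of the sequence only. Of the 10 members, 9 had an entry in the promoter table.

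After filters, 9932 cells of embryo 4 and 10416 of embryo 5 were kept, with medians of 10026.5 and 8825 UMIs. The libraries had 124318613 and 117679925 UMIs in all and shared 46 barcodes, of which 27 were kept. Clusters were named by marker genes and carry "-like", and the 10 members and 15 partner genes were kept out of the clustering. Named classes with at least 50 cells in each embryo were radial glial cells (RGC-like, 1385 and 1484 cells), intermediate progenitors (IPC-like, 933 and 959), immature excitatory neurons (917 and 939), upper-layer neurons (469 and 616), deep-layer neurons (1261 and 1340), Cajal-Retzius neurons (70 and 62) and interneurons of the medial ganglionic eminence (MGE, 677 and 650). All markers of a class were detected in it. The summed marker CPM was above that of every other class in each embryo, widely for Cajal-Retzius neuron-like cells (12834 and 14058 CPM against at most 455) and narrowly for immature excitatory neuron-like cells (2415 and 2653 against at most 2291). Clusters left without a name held 41.9% and 41.0% of the cells and were not part of this check of markers. *Xist* stood at 858 and 797 CPM over all kept cells and genes of the Y chromosome at 12 and 22 UMIs, so both libraries had the female pattern, which matters for the X-linked *Tenm1*.

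Each class was compared with the mean of the other 6 in 1 edgeR quasi-likelihood fit over 15790 genes, and a gene was called at a Benjamini-Hochberg adjusted p under 0.05. Of the 70 combinations of member and class, 31 were higher and 33 lower, and 6 did not pass. Members were mostly higher in upper- and deep-layer neuron-like cells and mostly lower in RGC-like and IPC-like cells. In upper-layer neuron-like cells 9 of 10 were higher and 0 lower (24.9% and 18.2% of all genes tested), with *Flrt1* the member that did not pass. In deep-layer neuron-like cells 8 were higher and 1 lower (30% and 22.2% of all genes), and in MGE interneuron-like cells 6 and 4 (25.9% and 22.6%). In RGC-like cells 1 was higher and 9 lower (37.5% and 31.6%), and in IPC-like cells 1 and 8 (30.7% and 24.4%). Immature excitatory neuron-like cells had 3 higher and 6 lower (26.4% and 22%) and Cajal-Retzius neuron-like cells 3 and 5 (19.9% and 19.2%). The median log2 difference of the members was 1.54 in upper-layer, 1.11 in deep-layer and 0.60 in MGE interneuron-like cells, against 0.03 for all genes in each. For RGC-like cells it was -1.24 and for IPC-like cells -1.46, against 0.05 and 0.04 for all genes. Some of these medians depended on the reference and the clustering. With the sum of all other kept cells, unnamed ones included, as the reference, the MGE interneuron-like median was -0.31 (4 members higher and 5 lower), the upper-layer median 0.55 (6 and 1) and the RGC-like median -2.09. At a clustering resolution of 2, the immature excitatory median was 0.43 (5 members higher and 1 lower), against -0.46 as reported.

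**Figure D1:**
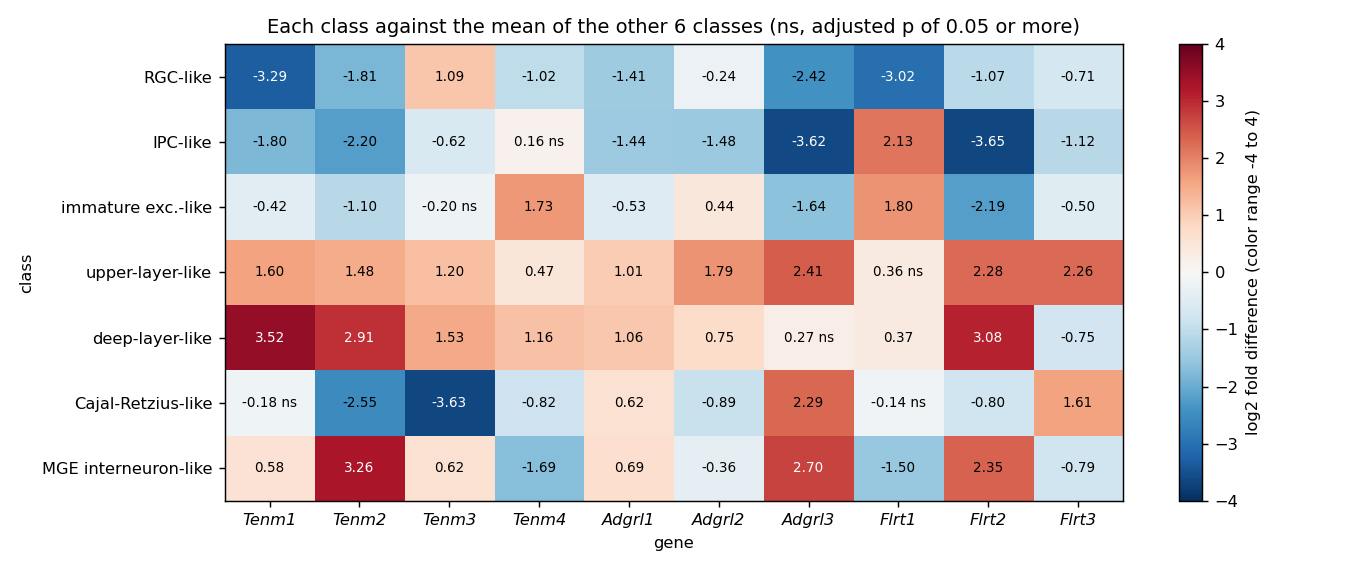
Log2 fold difference of each member (columns) in each class (rows) from the mean of the other 6 classes, from edgeR with 2 embryos per class (ns, adjusted p of 0.05 or more). The upper-layer row holds no negative value, and the RGC row has a positive value for *Tenm3* alone.

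The share of UMIs from *Malat1*, a transcript kept in the nucleus, was lower in the progenitor than in the neuronal classes. RGC-like cells had 0.928% and 0.983%, IPC-like cells 1.07% and 1.12%, and the neuronal classes from 1.69% to 2.65%. Among the neuronal classes the share did not follow the member medians. It was 1.69% and 1.86% in immature excitatory (median -0.46) and 1.82% and 1.88% in upper-layer neuron-like cells (median 1.54). The part of this share in the results was not tested. Without the cells of low *Malat1* share (355 and 254, under 0.2 times the median of their embryo), a member was higher in 31 and lower in 33 combinations. That filter does not even out the share between classes, so it cannot decide this. The scale matters for small differences. edgeR's TMM scaling shifts all genes of a comparison relative to CPM, by -0.20 in deep-layer, -0.13 in upper-layer, 0.12 in RGC-like and 0.19 in Cajal-Retzius neuron-like cells on the log2 scale (CPM minus TMM), and by less than 0.1 in the other classes. With library totals in place of TMM, 4 member calls changed, and they are given with the gene. Erythroid markers stood at 186 to 1528 CPM in the 7 classes of embryo 4, highest in upper-layer neuron-like cells, and at 296 to 3729 CPM in those of embryo 5, highest in IPC-like cells, endothelial markers at 6.08 to 20.2 CPM, and microglial markers at 15.8 to 40.3 CPM, and their part in the results was not tested.

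*Tenm1* had its highest level in deep-layer neuron-like cells, at 366 CPM in both embryos. It stood at 127 and 118 CPM in upper-layer, 68.7 and 74.6 in MGE interneuron-like, 45.2 and 58.8 in Cajal-Retzius, 37.9 and 39.6 in immature excitatory, 15.8 and 21.0 in IPC-like and 8.38 and 7.103 in RGC-like cells. The embryos did not overlap between any neighbours of this order, and its range from the highest to the lowest mean was 47.3-fold. The deep-layer level was 3.52 log2 units above the mean of the other classes (standard error (SE) 0.0646, edgeR adjusted p = 3.42e-16), the RGC-like level 3.29 below it (log2 difference -3.29, SE 0.112, edgeR adjusted p = 1.97e-13). Only the Cajal-Retzius and immature excitatory levels were neighbours whose difference did not pass the test (log2 difference 0.21, edgeR adjusted p = 0.354). The MGE interneuron-like level, higher in the comparison of classes (0.58, edgeR adjusted p = 6.83e-05), was lower against all other kept cells summed (-0.89, edgeR adjusted p = 8.36e-05), and the upper-layer call was lost with cells of 500 or more genes (-0.20, edgeR adjusted p = 0.249). With each cell thinned to 2000 UMIs, the share of cells with a *Tenm1* UMI was 36.0% and 35.5% in deep-layer and 1.61% and 1.16% in RGC-like cells (60.5% and 5.92% unthinned in embryo 4).

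*Tenm2* was highest in MGE interneuron-like cells, at 5574 and 5569.9 CPM, followed by deep-layer neuron-like cells at 3908 and 4147 CPM. Upper-layer neuron-like cells held 1904 and 1705 CPM. The other 4 classes lay between 184 and 425 CPM, with the lowest mean in Cajal-Retzius neuron-like cells (184 and 214 CPM), 28.0-fold below the highest. The level was 3.26 log2 units above the mean of the other classes in MGE interneuron-like cells (SE 0.0842, edgeR adjusted p = 1.59e-14) and 2.91 above it in deep-layer neuron-like cells (SE 0.0852, edgeR adjusted p = 6.28e-14). These 2 classes did not differ from each other past the threshold (log2 difference 0.30, edgeR adjusted p = 0.0838). They did with the embryo as a block (edgeR adjusted p = 0.0360) and with library totals (edgeR adjusted p = 0.00933). RGC-like and IPC-like cells, at 352 and 236 against 239 and 217 CPM, were not told apart either (edgeR adjusted p = 0.0569), though they were with the block (0.0248), with DESeq2's size factors (0.0383) and with library totals (0.0346).

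*Tenm3* was the 1 member that was higher in RGC-like cells, at 386 and 412 CPM (log2 difference 1.09, SE 0.119, edgeR adjusted p = 5e-07). Deep-layer neuron-like cells held 457 and 400.2 CPM and upper-layer neuron-like cells 403 and 335 CPM, so the embryos of these 3 classes overlapped. The difference of deep-layer from RGC-like cells was near the threshold (log2 difference 0.37, edgeR adjusted p = 0.0398) and missed it with DESeq2's size factors (0.0665) and with library totals (0.564). MGE interneuron-like cells stood at 281 and 279 CPM, immature excitatory neuron-like cells at 173 and 164 CPM and IPC-like cells at 152 and 129 CPM. The immature excitatory and IPC-like levels did not differ past the threshold (log2 difference 0.36, edgeR adjusted p = 0.0949, with the block 0.0341), and the IPC-like level was lower than the mean of the other classes (-0.62, edgeR adjusted p = 0.00126). Cajal-Retzius neuron-like cells were lowest, at 40.4 and 7.06 CPM (log2 difference -3.63, SE 0.251, edgeR adjusted p = 8.44e-09), with embryos that lay far apart but both below every other class.

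*Tenm4* ran in another order. Immature excitatory neuron-like cells held 2482 and 2908 CPM, deep-layer 1676 and 1828, upper-layer 1159.5 and 1262, IPC-like 1161 and 1119.8, Cajal-Retzius 745 and 614, RGC-like 589.6 and 566 and MGE interneuron-like cells 361 in both embryos. The immature level was 1.73 log2 units above the mean of the other classes (SE 0.0684, edgeR adjusted p = 6.3e-12) and above the deep-layer level by 0.49 (edgeR adjusted p = 0.000757). MGE interneuron-like cells, where *Tenm2* was highest, were lowest for *Tenm4* (log2 difference -1.69, SE 0.0909, edgeR adjusted p = 2.04e-10). Of the progenitors, RGC-like cells were lower than the mean of the other classes (-1.02, SE 0.0847, edgeR adjusted p = 1.72e-08). The IPC-like level did not pass against the mean of the other classes (log2 difference 0.16, SE 0.0770, edgeR adjusted p = 0.0822), but did with the block (0.0353) and with library totals (0.00954), and it was lower against all other kept cells summed (-0.27, edgeR adjusted p = 0.00793).

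**Figure D2:**
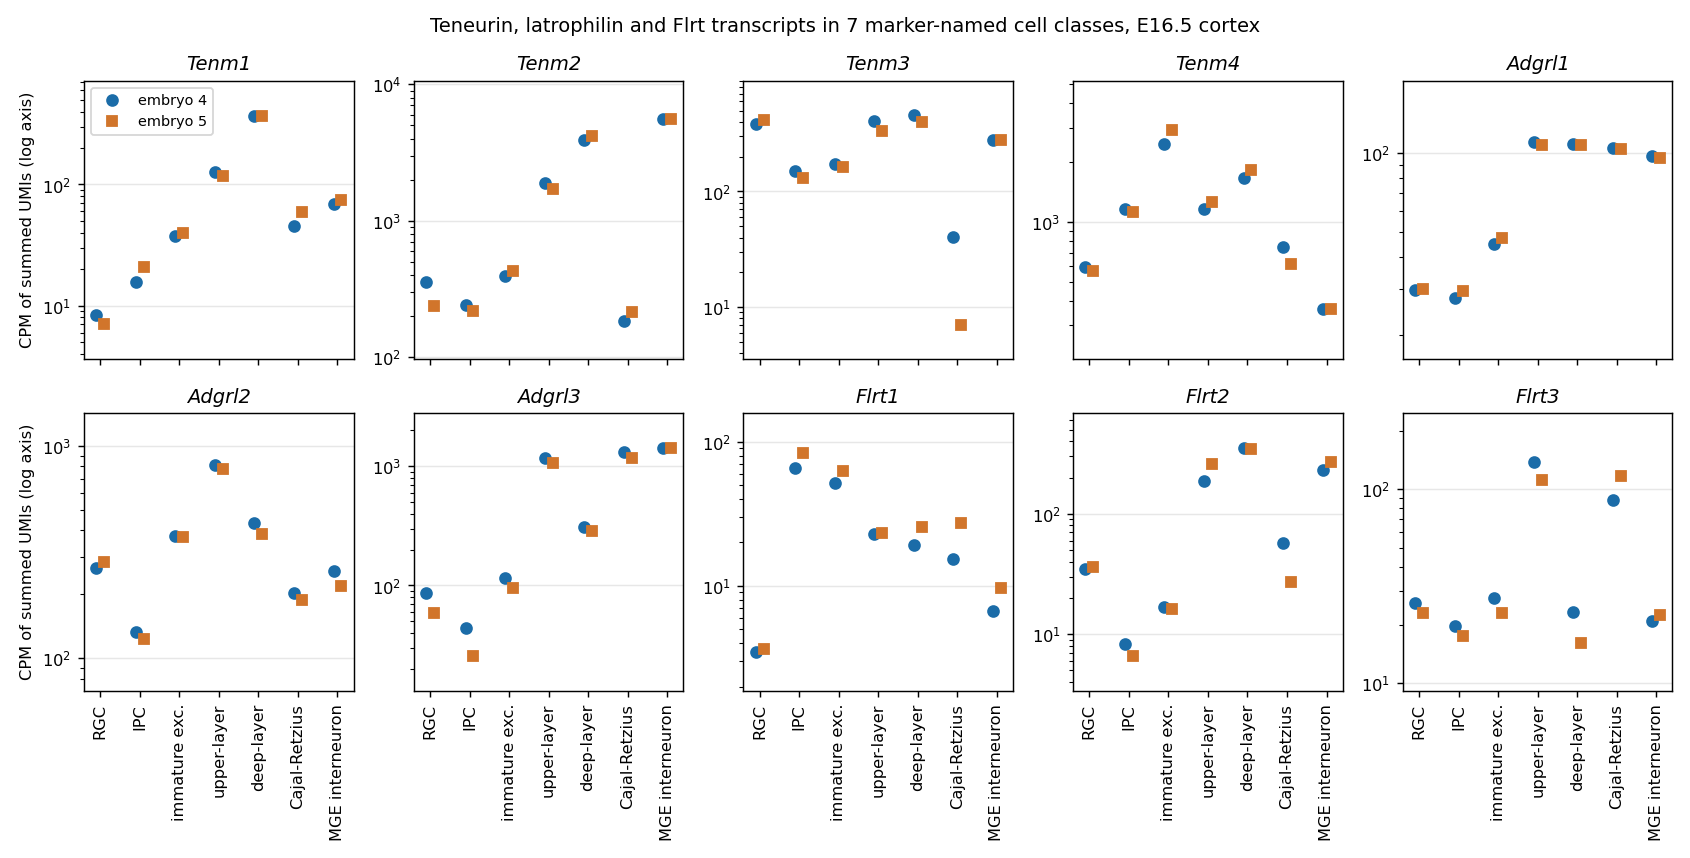
CPM of summed UMIs (log axis, a different range in each panel) of the 10 members in the 7 classes, 1 point per embryo. The widest gap between embryos is that of *Tenm3* in Cajal-Retzius neuron-like cells (40.4 and 7.06 CPM), and among the teneurins the highest class is deep-layer for *Tenm1* and *Tenm3*, MGE interneuron-like for *Tenm2* and immature excitatory for *Tenm4*.

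*Adgrl1* (latrophilin 1) had the narrowest range of the members, 3.81-fold. Upper-layer (110.3 and 108 CPM), deep-layer (108 and 108), Cajal-Retzius (105 and 104) and MGE interneuron-like cells (97.4 and 95.9) lay close together, and immature excitatory (44.8 and 47.2), RGC-like (29.8 and 30.04) and IPC-like cells (27.8 and 29.5) below them. It was higher in all 4 of the former classes, by log2 differences between 0.62 (Cajal-Retzius, SE 0.0856, edgeR adjusted p = 2.49e-05) and 1.06 (deep-layer, SE 0.0507, edgeR adjusted p = 3.01e-11). Deep-layer exceeded Cajal-Retzius neuron-like cells (0.38, edgeR adjusted p = 0.00392), which was lost with library totals (0.756). Neither the difference of upper-layer from deep-layer levels passed the test (log2 difference -0.04, edgeR adjusted p = 0.699), nor that of RGC-like from IPC-like cells (0.03, edgeR adjusted p = 0.799).

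*Adgrl2* (latrophilin 2) was highest in upper-layer neuron-like cells, at 809 and 781 CPM, which was 1.79 log2 units above the mean of the other classes (SE 0.0580, edgeR adjusted p = 3.71e-13). Deep-layer neuron-like cells followed at 435 and 386 CPM and immature excitatory neuron-like cells at 377 and 375 CPM. RGC-like cells held 267 and 284 CPM, MGE interneuron-like cells 258 and 219.5, Cajal-Retzius neuron-like cells 203 and 188 and IPC-like cells 134 and 123 CPM. The upper-layer level exceeded the next by 0.89 log2 units (edgeR adjusted p = 6.92e-07). RGC-like cells were lower than the mean of the other classes by a small amount (log2 difference -0.24, edgeR adjusted p = 0.00441), a call that library totals removed (-0.12, edgeR adjusted p = 0.114) and whose sign turned at resolution 2 (0.07, edgeR adjusted p = 0.420).

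*Adgrl3* (latrophilin 3) was high in 3 classes that did not differ from each other past the threshold, MGE interneuron-like (1415 and 1422 CPM), Cajal-Retzius (1322 and 1168) and upper-layer neuron-like cells (1166 and 1059). Their log2 differences from the mean of the other classes were 2.70, 2.29 and 2.41 (SE 0.111, 0.123 and 0.113, edgeR adjusted p = 6.51e-12, 3.54e-10 and 4.24e-11). The first 2 differed with the block (edgeR adjusted p = 0.129 without it and 0.0266 with it). Deep-layer neuron-like cells stood at 309 and 288 CPM, 1.84 log2 units below upper-layer neuron-like cells (edgeR adjusted p = 7.63e-07), and did not pass against the mean of the other classes (0.27, edgeR adjusted p = 0.0920, with the block 0.0141). Its direction turned at resolution 2 (-0.81, edgeR adjusted p = 0.000963), against all other kept cells summed (-0.97, edgeR adjusted p = 6.77e-06) and with doublets kept (-0.44, edgeR adjusted p = 0.0213). Immature excitatory neuron-like cells held 115 and 96.1 CPM, RGC-like cells 87.0 and 58.5 and IPC-like cells 43.6 and 25.4 CPM. The range was 41.1-fold. With thinned cells, an *Adgrl3* UMI was found in 85.4% and 84.3% of MGE interneuron-like and 6.30% and 4.32% of IPC-like cells (95.4% and 22.2% unthinned in embryo 4).

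*Flrt1* was highest in IPC-like cells, at 65.9 and 83.7 CPM, and in immature excitatory neuron-like cells, at 51.4 and 62.9 CPM. Against the mean of the other classes these levels were higher by 2.13 and 1.80 log2 units (SE 0.123 and 0.131, edgeR adjusted p = 4.1e-10 and 1.16e-08). They did not differ from each other past the threshold (0.29, edgeR adjusted p = 0.156, with the block 0.00458). Upper-layer (22.8 and 23.2 CPM), deep-layer (19.1 and 25.6) and Cajal-Retzius neuron-like cells (15.4 and 27.1) overlapped, and MGE interneuron-like cells (6.74 and 9.73) and RGC-like cells (3.49 and 3.65) lay below them. From RGC-like to IPC-like cells the mean level was 20.9-fold higher. The deep-layer call (0.37, edgeR adjusted p = 0.0340) was lost with library totals (0.304), DESeq2's size factors (0.05003) and DESeq2 (adjusted p = 0.0902), and the upper-layer level passed only with the block (0.0944 without and 0.0121 with it). *Macrod1*, the gene around *Flrt1*, had a like order, with 132 and 125 CPM in IPC-like, 85.1 and 92.6 in immature excitatory and 11.9 and 11.47 CPM in RGC-like cells.

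*Flrt2* was highest in deep-layer neuron-like cells, at 349.9 and 345 CPM (log2 difference 3.08, SE 0.103, edgeR adjusted p = 3.2e-13). MGE interneuron-like (232 and 271 CPM) and upper-layer neuron-like cells (187 and 261) followed, with no difference past the threshold between them (0.06, edgeR adjusted p = 0.803). Cajal-Retzius neuron-like cells held 57.7 and 27.1 CPM and RGC-like cells 34.6 and 36.4 CPM. The lowest levels were those of immature excitatory (16.9 and 16.2 CPM) and IPC-like cells (8.26 and 6.56 CPM), and IPC-like cells were 46.9-fold below deep-layer neuron-like cells. The Cajal-Retzius call (-0.80, edgeR adjusted p = 0.0147) was lost with library totals (-0.61, edgeR adjusted p = 0.0532) and turned with doublets kept (0.999, edgeR adjusted p = 0.000833). The immature excitatory level depended on the clustering. At resolution 2 that class held 1041 and 1078 cells and 109 and 117 CPM, and *Flrt2* was higher there (0.47, edgeR adjusted p = 0.0312) in place of lower (-2.19, edgeR adjusted p = 2.86e-08). With thinned cells the share of cells with a *Flrt2* UMI was 41.0% and 42.1% in deep-layer and 1.96% and 0.948% in IPC-like cells (76.9% and 7.07% unthinned in embryo 4).

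*Flrt3* was high in upper-layer (138 and 111 CPM) and Cajal-Retzius neuron-like cells (88.4 and 118 CPM), by 2.26 and 1.61 log2 units (SE 0.102 and 0.172, edgeR adjusted p = 2.85e-11 and 1.38e-06). The embryos of these classes overlapped, and their difference (0.56, edgeR adjusted p = 0.0220) did not pass with library totals (0.263). The other 5 classes lay between 16.2 and 27.5 CPM, and none of the 4 neighbouring pairs among them passed the test, except the deep-layer and IPC-like pair with the block (edgeR adjusted p = 0.111 without and 0.0432 with it). The immature excitatory level, lower in this comparison (-0.50, edgeR adjusted p = 0.00550), was higher at resolution 2, at 80.9 and 78.1 CPM (1.31, edgeR adjusted p = 6.19e-09). Deep-layer neuron-like cells, at 23.3 and 16.2 CPM, were among these, and upper- and deep-layer levels stood far apart for *Flrt3*, whereas they lay close together for *Adgrl1*. *Macrod2*, the gene around *Flrt3*, held 1834 and 1845 CPM in upper-layer and 919 and 912 in deep-layer neuron-like cells.

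Across all members, 38 of the 60 neighbouring pairs of classes differed past the threshold (44 with the block, 34 with library totals). Over all 21 pairs of classes, which include those far apart, 49.4% of the tests of all genes passed. The highest class differed from the next for 6 members. It did not for *Tenm2*, *Adgrl1*, *Adgrl3* and *Flrt1*. By mean CPM, whether or not the next class differed, deep-layer neuron-like cells were the highest class for 3 members, upper-layer for 3, MGE interneuron-like for 2, and IPC-like and immature excitatory neuron-like cells for 1 each.

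Named classes were made of 1 or 2 clusters, and the clusters could be compared in a second fit, over 20 clusters and 15753 genes, that was added after the clusters were seen. Members were higher in 97 and lower in 73 of 200 combinations with a cluster (24.1% and 17.7% of all genes over the 20 clusters). In 10 pairs of clusters, chosen after the clusters were seen, 59 of 100 tests passed (20.9% of all genes). Some of these pairs hold a cluster that stands out below for its levels of members. Their share of calls is thus partly set by the choice and is no test of the members. Between the clusters of the deep-layer neuron-like class, the 1 led by *Hs3st4* held *Tenm1* at 715 and 705 CPM and the 1 led by *Kirrel3* at 140.5 and 157 CPM. *Tenm1* was thus higher by 2.24 log2 units in the *Hs3st4* cluster (SE 0.126, edgeR adjusted p = 1.32e-13), while *Flrt3*, at 14.8 and 10.1 against 28.8 and 20.02 CPM, was lower (-0.97, edgeR adjusted p = 0.000335). *Tenm2* was lower too (-0.45, edgeR adjusted p = 0.0353), and the other 7 members did not pass, where 15.5% of all genes did. *Adgrl2* and *Adgrl3* passed with the block. *Robo1*, the axon guidance receptor that binds Flrt3, was also lower in the *Hs3st4* cluster (605 and 619.5 against 1837 and 1791 CPM, log2 difference -1.58, edgeR adjusted p = 1.53e-12). The deep-layer level of *Tenm1* thus joined a higher and a lower cluster. The lower one still stood above upper-layer neuron-like cells (127 and 118 CPM), the next class, a difference that was not tested.

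Between the RGC-like clusters, led by *Tnc* and by the cell cycle gene *Top2a*, edgeR called 0 of 10 members, with 1 at an unadjusted p under 0.05 and 0 with the block, where 15.1% of all genes were called. The IPC-like clusters, led by *Neurog2* and by the replication gene *Pclaf*, differed in 5 members (30.4% of all genes). *Adgrl1* (22.9 and 22.2 against 41.9 and 48.2 CPM) and *Adgrl2* (106 and 101 against 214 and 179 CPM) were lower in the *Neurog2* cluster by 1.02 and 0.95 log2 units (log2 differences -1.02 and -0.95, edgeR adjusted p = 7.88e-08 and 3.44e-08). *Tenm2* and *Tenm3* were lower there as well, and *Flrt1*, at 73.2 and 93.1 against 44.7 and 59.8 CPM, was higher (0.64, edgeR adjusted p = 0.0183).

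An unnamed cluster led by *Nrp1* and *Frmd4a* (1021 and 1056 cells), whose highest marker mean was for immature excitatory neurons, differed from the cluster of the named class, led by *Cdh8*, in members of all 3 families, *Flrt2* and *Flrt3* among them. *Flrt3* was at 128 and 118 CPM in the *Nrp1* cluster and 27.5 and 23.1 in the *Cdh8* cluster (log2 difference 2.32, SE 0.150, edgeR adjusted p = 2.3e-13). *Flrt2* was at 108 and 129.8 against 16.9 and 16.2 CPM (2.88, SE 0.270, edgeR adjusted p = 6.78e-10). In all, 8 members were higher in the *Nrp1* cluster (13.8% of all genes) and 0 lower (13.2%), with *Tenm4* (2065 and 2255 against 2482 and 2908 CPM, log2 difference -0.28, edgeR adjusted p = 0.0733) called lower with the block. *Robo1* was higher as well (619 and 632 against 147 and 143 CPM, log2 difference 2.15, edgeR adjusted p = 1.63e-15). *Unc5d*, the Unc5 receptor for which Flrt2 is a known ligand, stood at 3659.6 and 3677 CPM in the *Nrp1* cluster and 5645 and 6149 in the *Cdh8* cluster, a difference that did not pass (-0.65, edgeR adjusted p = 0.0557).

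From the *Nrp1* cluster to the upper-layer neuron-like cluster, led by *Cdh12*, the difference of *Flrt3* did not pass (138 and 111 CPM in the latter, log2 difference 0.04, edgeR adjusted p = 0.880). *Adgrl3* (337 and 318 against 1166 and 1059 CPM) and *Tenm1* (50.4 and 48.4 against 127 and 118 CPM) were higher in the *Cdh12* cluster, by 1.79 and 1.34 log2 units (edgeR adjusted p = 2.66e-07 and 3.75e-09). *Tenm4* and *Flrt1* were lower there (-0.81 and -1.48, edgeR adjusted p = 3.21e-06 and 1.11e-06), so 6 members were higher and 2 lower (12.3% and 10.7% of all genes). *Unc5d* was lower in the *Cdh12* cluster, at 403 and 399.9 CPM (-3.16, SE 0.274, edgeR adjusted p = 1.8e-10). It was at 27.6 and 25.4 CPM in the *Kirrel3* and 34.7 and 30.6 CPM in the *Hs3st4* cluster, where *Flrt2* reached 355 and 359, and 342 and 322 CPM. The *Cdh8* cluster, highest for *Unc5d*, was thus among the lowest for *Flrt2*, and the deep-layer clusters the other way round. Over all 20 clusters the correlation of their log levels was weak (Pearson r = -0.43), in sums that share libraries.

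**Figure D3:**
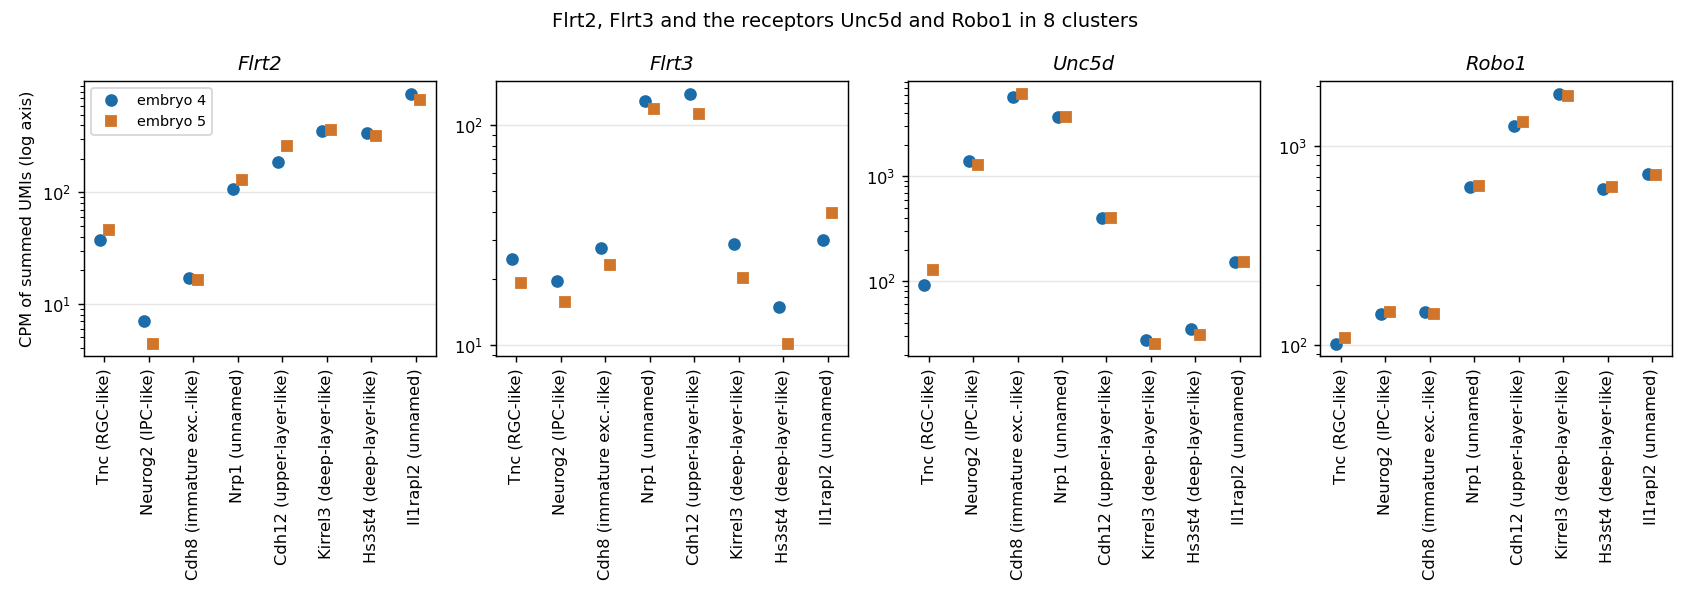
CPM of summed UMIs (log axis, a different range in each panel) of *Flrt2*, *Flrt3*, *Unc5d* and *Robo1* in 8 clusters, named by their first leading gene, 1 point per embryo. *Flrt2* is lowest in the *Neurog2* cluster, *Unc5d* is highest in the *Cdh8* cluster and lowest in the deep-layer clusters, and *Flrt3* is high in the *Nrp1* and *Cdh12* clusters.

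The highest levels of 3 teneurins over all clusters were in 1 unnamed cluster of 166 and 190 cells, led by *Il1rapl2*, *Grin2a*, *Nr4a2*, *Tshz2* and *Unc13c*. It held *Tenm1* at 848 and 803 CPM, *Tenm2* at 7059.7 and 7572, and *Tenm3* at 977 and 968 CPM. Among the clusters in the fit, *Flrt2* was also highest there, at 771 and 675 CPM. Their log2 differences from the mean of the other 19 clusters were 3.85, 2.94, 2.28 and 3.02 (SE 0.0721, 0.0783, 0.0945 and 0.133, edgeR adjusted p = 4.88e-27, 1.46e-23, 1.16e-18 and 4.83e-18). In this cluster 7 members were higher and 1, *Adgrl2* at 185 and 190.2 CPM, lower (20.5% and 15.8% of all genes). *Tenm1* is among its 10 leading genes, as *Adgrl3* is for the cluster described next, although both were left out of the clustering. Against the *Hs3st4* cluster, *Tenm2*, *Tenm3* and *Flrt2* were higher by 1.09, 0.97 and 1.07 log2 units (edgeR adjusted p = 2.42e-06, 3.91e-05 and 0.000917), *Adgrl2* was lower (-1.04, edgeR adjusted p = 1.76e-08), and *Tenm1* did not pass (0.17, edgeR adjusted p = 0.505). Here 6 of 10 members passed where 9.42% of all genes did, in a cluster singled out for its levels of members.

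*Adgrl3* was highest in an unnamed cluster of 445 and 468 cells led by *Tafa1* and *Tafa2*, at 4263 and 3988 CPM, 3.79 log2 units above the mean of the other clusters (SE 0.108, edgeR adjusted p = 1.96e-22). It was higher there than in MGE interneuron-like cells by 1.57 log2 units (SE 0.222, edgeR adjusted p = 1.42e-06). The next cluster in order was another unnamed one, led by *Tfap2d* and *Nts*, at 1887 and 1837 CPM (difference 1.20, SE 0.220, edgeR adjusted p = 0.000172). Between these 2 clusters *Flrt3* differed as well, at 126 and 120.2 against 37.5 and 35.9 CPM (1.79, edgeR adjusted p = 9.12e-10). In all, 7 of 10 members passed (17.1% of all genes), in clusters singled out for their *Adgrl3* level. The lowest levels of *Tenm1* (5.56 and 6.28 CPM) and *Tenm4* (105 and 92.2 CPM) in the fit were those of a cluster with *Dlx1* and *Dlx2*, genes of the GABAergic lineage, among its leading genes, where 9 members were lower and *Flrt2*, at 110.2 and 234 CPM, was higher (0.64, SE 0.183, edgeR adjusted p = 0.00429; 21.7% and 25.5% of all genes were lower and higher).

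**Figure D4:**
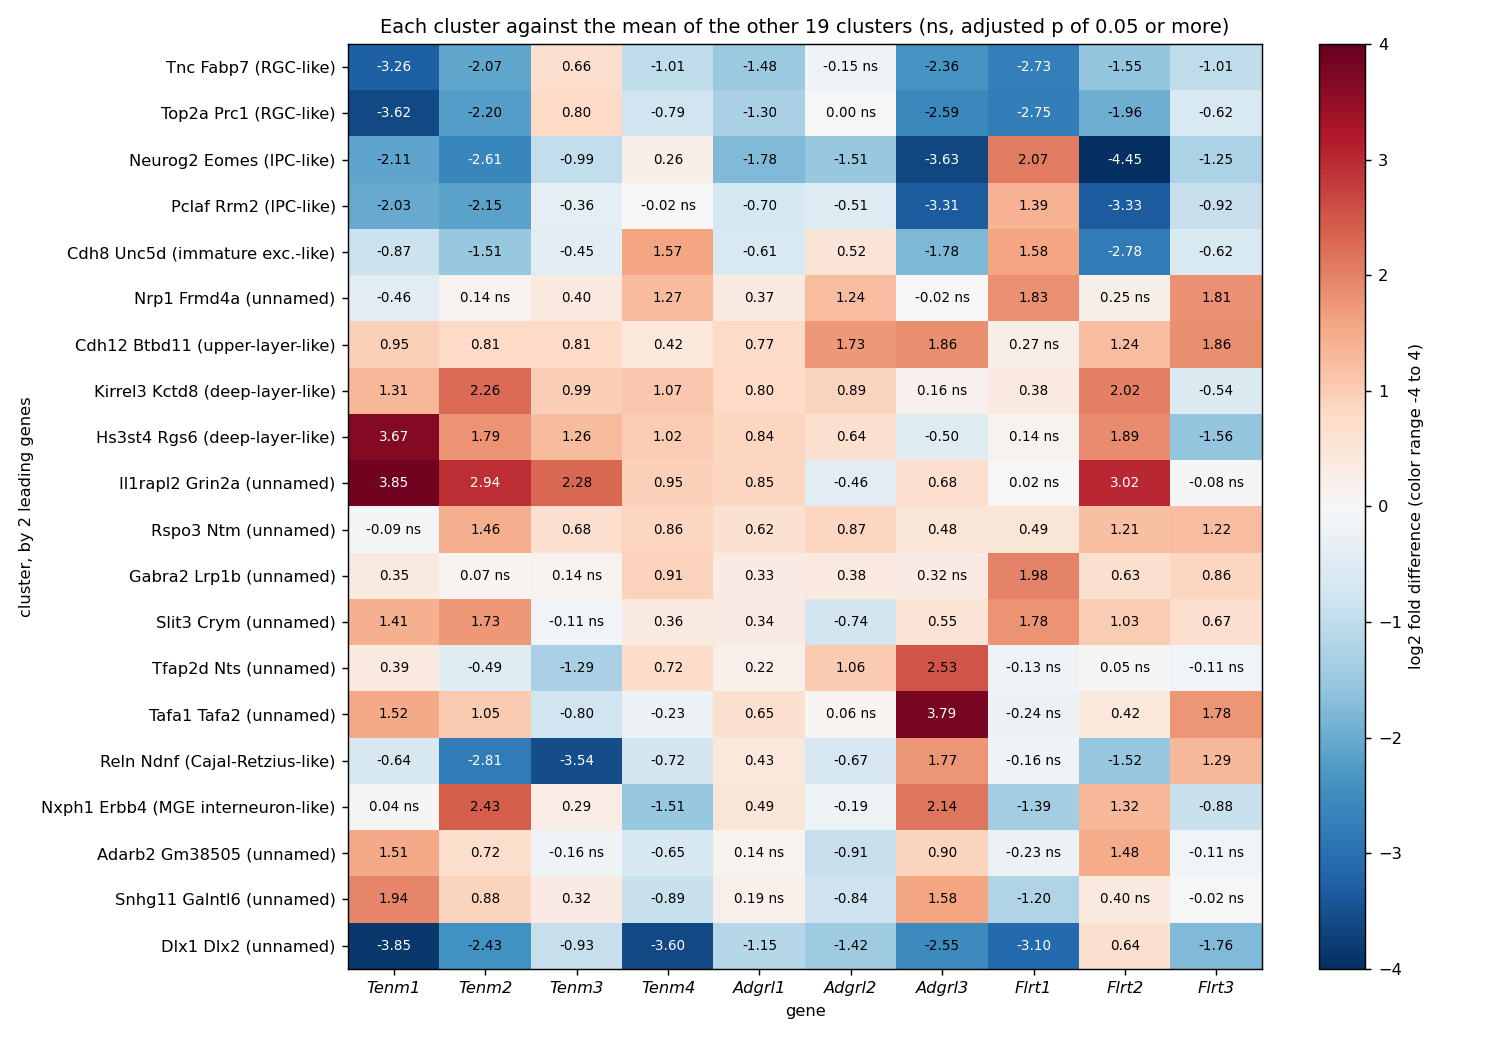
Log2 fold difference of each member (columns) in each of 20 clusters (rows, by their leading genes) from the mean of the other 19, from edgeR with 2 embryos per cluster (ns, adjusted p of 0.05 or more). The *Il1rapl2* row holds the highest value for *Tenm1*, *Tenm2*, *Tenm3* and *Flrt2*, and the *Tafa1* row that for *Adgrl3*.

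The partner list held 15 genes whose proteins are known to bind members or to lie close to them at synapses. *Adgrl4*, an adhesion receptor of blood vessels related to the latrophilins, was under the filter on low counts, with at most 1.34 CPM in any class. The other 14 were higher in 40 and lower in 39 of 98 combinations with a class. In upper-layer neuron-like cells 10 of 14 were higher and 2 lower (24.9% and 18.2% of all genes). In RGC-like cells 3 of 14 were higher and 8 lower (37.5% and 31.6% of all genes). Among the Unc5 receptors, *Unc5d* was highest in immature excitatory neuron-like cells (log2 difference 5.09, edgeR adjusted p = 4.65e-15) and next in IPC-like cells, at 1362 and 1250.2 CPM. *Unc5c* was highest in MGE interneuron-like cells, at 286 and 335 CPM (2.92, edgeR adjusted p = 9.21e-12). *Unc5b* stood at 98.0 and 109 CPM in Cajal-Retzius neuron-like cells (6.15, edgeR adjusted p = 2.4e-12) and at most 5.73 CPM in the other 6 classes. *Unc5a* was also highest there, at 48.1 and 28.2 CPM (2.42, edgeR adjusted p = 6.74e-07). No Unc5 receptor had its highest level in deep- or upper-layer neuron-like cells.

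*Robo1* was higher in deep-layer (1352 and 1343 CPM) and upper-layer neuron-like cells (1264 and 1315 CPM), by 2.54 and 2.40 log2 units (edgeR adjusted p = 8.95e-15 and 3.81e-14). *Fgfr1*, a growth factor receptor that Flrt proteins bind, was highest in RGC-like cells at 150.0 and 148 CPM (2.15, edgeR adjusted p = 1.99e-13) and next in upper-layer neuron-like cells at 87.2 and 94.7 CPM (1.57, edgeR adjusted p = 2.6e-10). *Nrxn3*, which encodes a neurexin, a presynaptic adhesion protein, was highest in MGE interneuron-like cells (7.61, edgeR adjusted p = 5.63e-14), and 2 of its other calls changed with the block. The scaffold genes *Shank1*, *Shank2* and *Shank3*, whose proteins bind the inner end of latrophilins, were each higher in upper-layer, deep-layer and MGE interneuron-like cells. *Shank1* stood at 121 and 132, 106 and 102, and 128 and 111 CPM there, and at 5.44 to 8.87 CPM in RGC-like, IPC-like and immature excitatory neuron-like cells. The deep-layer call of *Shank3* (0.43, edgeR adjusted p = 0.00440) was lost with library totals (0.0970) and at resolution 2 (-0.12, edgeR adjusted p = 0.385). *Cntn6* and *Dag1*, which encode an adhesion protein and dystroglycan, were higher in RGC-like cells (3.07 and 0.50, edgeR adjusted p = 5.79e-08 and 0.000268), *Cntn6* at 22.0 and 10.4 CPM. With the block *Unc5c* passed in deep-layer, *Unc5a* in immature excitatory, and *Cntn6* and *Dag1* in IPC-like cells (edgeR adjusted p = 0.0320, 0.0494, 0.0337 and 0.0435).

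MGE interneuron-like cells were split by the presence of an *Sst* UMI, since somatostatin interneurons are the cells the study is about. *Sst*+ cells numbered 267 and 272 and *Sst*-negative cells 410 and 378. *Sst*+ cells had more UMIs per cell (medians 7950 and 7068 against 5424.5 and 5923.5), so the split depends on depth and its part in the result was not tested. *Adgrl2* was at 285 and 296 CPM in *Sst*+ and 234 and 151 CPM in *Sst*-negative cells, higher in both embryos (log2 difference 0.60, SE 0.150, edgeR adjusted p = 0.0311 over 10875 genes). It was the 1 member of 10 called, against 3.93% of all genes. *Tenm4* (381 and 450.2 against 344 and 281 CPM, 0.42, edgeR adjusted p = 0.0785) and *Adgrl3* (1508 and 1658 against 1329.5 and 1209 CPM, 0.33, edgeR adjusted p = 0.147) did not pass. With the embryo as a block 3 members passed, these and *Adgrl2*. The *Adgrl2* call was lost with DESeq2 (adjusted p = 0.0832), with doublets kept (edgeR adjusted p = 0.431) and with each cell thinned to 2000 UMIs (edgeR adjusted p = 0.0967). *Tenm2*, the member highest in this class, was at 5388 and 5222 CPM in *Sst*+ and 5743 and 5883 CPM in *Sst*-negative cells (-0.13, edgeR adjusted p = 0.692). Of the partners, *Unc5d* (265 and 248 against 152 and 134 CPM) was higher in *Sst*+ cells (0.85, SE 0.111, edgeR adjusted p = 0.000174).

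**Figure D5:**
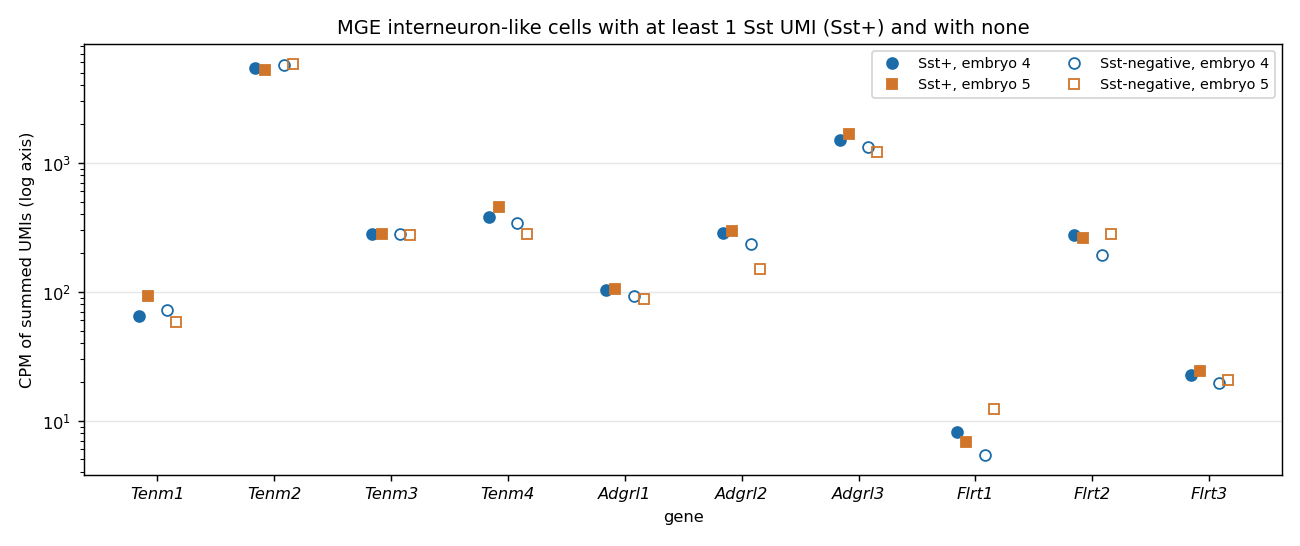
CPM of summed UMIs (log axis) of the 10 members in MGE interneuron-like cells with at least 1 *Sst* UMI (filled) and with none (open), 1 point per embryo. For *Adgrl2*, *Adgrl3*, *Tenm4*, *Adgrl1* and *Flrt3* both filled points lie above both open points, and for *Tenm2* both lie below them. How often other genes do so was not counted, and *Adgrl2* alone passed the test.

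For each member, the 3 genes whose log2(CPM + 1) was most like it over the 7 classes (mean of both embryos, Pearson r over 7 points that share libraries) were named as a description. They were *Kcnmb4*, *Slc1a1* and *Ralyl* for *Tenm1* (r = 0.989 to 0.984), *Banf2*, *Tek* and *Plxna1* for *Tenm2* (0.995 to 0.985), *Bach2*, *Bcat2* and *Nostrin* for *Tenm3* (0.986 to 0.985), and *Sort1*, *Glt8d2* and *Rasgef1b* for *Tenm4* (0.977 to 0.959). *Tek* is 1 of 9 endothelial markers, which summed to at most 20.2 CPM in any of the classes, so its level was low. Each gene named was picked as among the highest of 15790, so high values of r follow from the choice. *Prkcz*, *Snap47* and *Sema4f* were most like *Adgrl1* (0.996 each), *AI597479*, *Kcna2* and *Bcl6* most like *Adgrl2* (0.973 to 0.941), and *Chd5*, *Wrnip1* and *Gm4651* most like *Adgrl3* (0.995 to 0.990). *Macrod1*, *Numbl* and *AC109619.1* were most like *Flrt1* (0.995 to 0.973), *Fgf14*, *Nrg2* and ENSMUSG00000118020 most like *Flrt2* (0.994 to 0.988), and *Hs6st3*, *Slc52a2* and *Sik2* most like *Flrt3* (0.951 to 0.944). The gene most like *Flrt1* was thus the gene around it. Between members, over the 20 clusters, *Tenm2* and *Flrt2* correlated at r = 0.849 and *Tenm4* and *Flrt1* at 0.755, but *Tenm1* and *Tenm3* at 0.300.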

How the data were processed

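Gene counts of single cells were measured in 2 cortex libraries, 1 per embryo. The authors deposited raw counts of UMIs for every gene and barcode, made with Cell Ranger against mm10 (version 7.0.0 in the submitters' processing notes, 7.1.0 in the file header). Whether introns or strand entered the counts is not given in the sources used here. Of 12825 and 12289 barcodes, 1772 and 765 with under 1000 detected genes, then 174 and 56 with over 10% mitochondrial counts, then 947 and 1052 scored as doublets against simulated ones (0.8% per 1000 cells), were removed. Cells were clustered on 2000 variable genes and 30 components (20 neighbours, Leiden resolution 1, leidenalg 0.10.2, Python 3.11.15). Members, partners, mitochondrial and sex-linked genes were left out. A cluster took the class with the highest mean log2 marker ratio (prior 10 CPM, at least 0.5 and 0.25 above the next, with 3 or more markers in at least 10% of cells), and stayed unnamed where another class had as many markers among its 10 leading genes. A mean of at least 1.5 was asked where none of its own markers led, which was set after the clusters were seen. Names were thus rebuilt and may differ from the study's.

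Sums of UMIs per embryo and class entered edgeR 4.0.16 (R 4.3.3, filterByExpr, TMM, quasi-likelihood, two-sided, Benjamini-Hochberg over all genes tested), with no block. DESeq2 1.42.0 was an alternative. The embryos are numbered as separate animals of 1 labelled group. Their titles share a number, and the labels do not say whether it marks a common litter or mother, so they may be littermates. The p-values rest on the spread between these 2 embryos within classes or clusters, pooled over them and shared over genes. The class fit has 7 residual degrees of freedom, since without a block it takes the sums of 1 embryo as independent. Each animal gives a sum to every class, so the embryo number pairs the sums. The correlation of their deviations from the class means ran from 0.0490 to 0.207 over 21 pairs of classes (median 0.110) and was 0.160 for the *Sst* split. On simulated sums of the 7 class comparisons (14962 to 15036 genes), 28.4% to 65.7% of genes changed 1.5-fold were called. Of those changed 2-fold, 43.3% to 83.6% were called, and of those changed 4-fold, 80.3% to 95.5%. At most 7.65% of calls were unchanged genes, at an adjusted p threshold of 0.05. Intervals of CPM and shares are exact 95% intervals and cover counting error only.

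The members and gene lists were chosen with earlier results of these data known. Named were the 10 members, the partners, the leading genes of clusters and, per member, the 3 genes most like it in log2(CPM + 1). The 20-cluster fit and its 10 pairs of clusters, the library-total scaling, the alternatives for members outside their highest class and the alternatives for neighbouring classes were added after the data were seen. Promoters were read from a RefSeq table (GRCm38.p6), and *Macrod1* and *Macrod2* were added as the genes around members. Values of some genes are not reported here.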

Additional observations from a re-analysis of the deposited data

Results flagged for a closer look

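The values here lie outside the comparisons of the 7 classes, in cells too few for the fit. Fibroblast-like cells numbered 50 in embryo 5 and 1 in embryo 4. In those of embryo 5, *Flrt2* stood at 936 CPM (519 UMIs, exact 95% interval 857 to 1020), above the 5.41 CPM that a count of 0 allows, where the median of the 7 classes was 42.4 CPM. *Flrt3* stood at 48.7 CPM in the same cells (27 UMIs, interval 32.1 to 70.8), with a median of 24.5 CPM over the 7 classes. Pericyte-like cells numbered 53 and 46. *Adgrl3* was at 707 CPM in those of embryo 4 (444 UMIs, interval 643 to 776, above the 4.78 CPM that a count of 0 allows) and at 602 CPM in those of embryo 5 (309 UMIs, interval 537 to 674, above 5.85 CPM), with a median of 298 CPM over the 7 classes. None of these levels was tested.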

How the results depend on the processing

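The members called between *Sst*+ and *Sst*-negative cells, 1 as reported, numbered 2 with doublets kept (*Adgrl1* and *Adgrl3*), 2 with at least 3 *Sst* UMIs against 0 and 2 without a filter on low counts (*Tenm4* and *Adgrl2* in both), 3 with the embryo as a replicate block, 0 of 9 tested with cells thinned to 2000 UMIs (2 at an unadjusted p under 0.05) and 0 with DESeq2 (3 at an unadjusted p under 0.05). It stayed 1 with 500 detected genes, 5% mitochondrial counts, cells of low *Malat1* share left out and DESeq2's size factors, *Adgrl2* each time. The cause of these moves was not tested.

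Over the planned and added alternatives, members were higher in 25 to 34 and lower in 28 to 39 combinations with a class, partners in 31 to 43 and 35 to 50. The lowest member count of higher calls, 25, came with the sum of all other kept cells as reference (39 lower). With the embryo block the pairing gave 34 members higher and 33 lower, 43 and 42 for partners, 44 neighbouring pairs, 98 and 74 for clusters, and 68 of 100 calls in pairs of clusters against 59 without it. The block changed 3 member calls by class, those of *Adgrl3*, *Tenm4* and *Flrt1* given above. Of 170 alternative fold differences of members in their highest class and of *Adgrl2* in the *Sst* split, 3 lost their call (all in the split) and 0 changed direction. The highest class was picked by its level, so a change of direction against the other classes was hardly possible there. In the other classes, of 960 alternatives 22 lost a call, 13 gained one and 23 changed direction with a call on either side. At resolution 2 these were immature excitatory *Flrt3* (1.31), *Flrt2* (0.47), *Adgrl1* (0.13) and *Tenm1* (0.059), deep-layer *Adgrl3* (-0.81), MGE interneuron-like *Tenm1* (-0.17) and RGC-like *Adgrl2* (0.071). Against all other kept cells summed they were deep-layer *Adgrl3* (-0.97) and *Flrt1* (-0.38), MGE interneuron-like *Tenm1* (-0.89) and *Tenm3* (-0.065), upper-layer *Flrt1* (-0.37) and *Tenm4* (-0.0020), and IPC-like *Tenm4* (-0.27). With doublets kept they were Cajal-Retzius *Flrt2* (0.999), deep-layer *Adgrl3* (-0.44), *Adgrl2* in MGE interneuron-like (0.20) and RGC-like cells (0.0018), and MGE interneuron-like *Tenm1* (-0.079). With 500 detected genes they were upper-layer *Tenm1* (-0.20), immature excitatory *Tenm1* (0.034) and *Flrt3* (0.0029), and MGE interneuron-like *Adgrl2* (0.0068), all log2 differences. The cause was not tested; these alternatives change which cells form a class or the reference. Leaving out an embryo leaves 1 sum per class and no test. A fold difference of a member in its highest class then moved by at most 0.237 (without embryo 4) or 0.167 (without embryo 5) on the log2 scale, and counts of calls cannot be made. CPM in the highest class stayed within 0.787 to 1.25 times the reported value over 100 alternatives. Low counts limit the low levels most, such as *Tenm3* in the few Cajal-Retzius neuron-like cells (70 and 62 cells, 40.4 and 7.06 CPM). *Flrt1* in RGC-like cells was low too, but with embryos close together (3.49 and 3.65 CPM).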

Other observations

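At a clustering resolution of 2 some cells that had no name formed further classes by the same rule, which the report does not compare. Cells like interneurons of the caudal ganglionic eminence (191 and 149 cells) held *Tenm1* at 201 and 244 CPM, *Tenm2* at 2746 and 3473, *Tenm4* at 417 and 742, *Adgrl2* at 85.3 and 75.4, *Adgrl3* at 975 and 929 and *Flrt2* at 55.5 and 58.3 CPM. Cells like GABAergic neurons of the lateral ganglionic eminence (527 and 485 cells) held *Tenm1* at 264 and 202 CPM, *Tenm2* at 1942 and 1483, *Adgrl3* at 991 and 628 and *Flrt2* at 185 and 367 CPM. The embryos of these classes overlapped for *Tenm1* and *Adgrl3* and not for *Tenm2* and *Flrt2*.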
